A study of Sus scrofa with 12 samples.

Results

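TNF, IL6, CXCL2 and CXCL3 encode secreted signals of acute inflammation. The 4 genes were chosen by symbol, and all 4 had a row among the 7480 gene symbols of the deposited expression table. Each was followed over 12 libraries, 4 from pig peripheral blood mononuclear cells (PBMC) treated with a miR-124 sponge and Salmonella, 4 from PBMC treated with Salmonella alone and 4 from non-treated PBMC, called control. Per the series labels the blood came from crossbred piglets (Duroc × Landrace × Yorkshire) of both sexes aged 4 weeks, the bacterium was Salmonella Typhi, and cells were taken 12 h after treatment. The sponge, a synthetic oligo per the series title, is a decoy meant to soak up the microRNA miR-124. The titles of these 4 libraries give miR-124 with no mention of a sponge; that word stands in their descriptions and treatment labels. No label ties a library to an animal, so each p-value reflects the spread among these libraries alone, and that spread may be technical.

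TNF is a cytokine that myeloid cells make as a membrane protein, which the protease ADAM17 cuts free to act on the receptors TNFR1 and TNFR2. IL-6 acts through its receptor IL6R and the shared chain gp130 on the transcription factor STAT3. CXCL2 and CXCL3 are chemokines that draw neutrophils through the receptor CXCR2. In monocytes and macrophages, bacterial endotoxin sensed by TLR4 switches all of these genes on through NF-kB, and their short-lived mRNAs are then cleared by RNA-binding proteins. In mouse macrophages, miR-124 has been reported to act on the mRNAs of STAT3 and ADAM17.

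In the Sscrofa11.1 annotation TNF (ENSSSCG00000060860) lies on chromosome 7, from 23699635 to 23702393. IL6 (ENSSSCG00000020970) lies on chromosome 9, from 91506421 to 91510830. CXCL2 (ENSSSCG00000008959) lies on chromosome 8, from 70157253 to 70159145. The symbol CXCL3 matched no entry of the pig gene tables used here, so it is given no position. CXCL2 and CXCL3 are close copies of each other in human, and how the authors' counting divided short reads between such copies is not given in the sources used here, so the values of both are uncertain.

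The values are expression levels on a log scale taken as base 2, and the depth behind them is unknown. They ran from 2.13 to 15.01, with library medians of 5.11 to 5.31. Whether they are corrected for gene length is not given in the sources used here, so levels are compared between libraries and not between genes. As a gauge of low signal, the symbols of families seldom expressed in blood (olfactory and taste receptors, hair keratin partners and the like, 185 in all) had a mean of 4.62 and a 5th to 95th percentile of 4.39 to 4.97; 53 of the 185 were in the pig gene tables. This range is called the silent band. In the sponge plus Salmonella libraries, 65.1% to 71.4% of genes had a value that another gene of that library also had, against at most 0.0802% in the other 8. IL6, CXCL2 and CXCL3 each shared their value with 2 to 11 other genes in these libraries, and TNF with 0. The sponge and this difference between columns cannot be told apart.

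The PBMC label was checked against markers. T cell, B cell and monocyte genes such as CD2, CD79A and FCN1 had group means of at least 9.17. The red cell gene AHSP (10.32 with sponge plus Salmonella, 12.11 with Salmonella and 11.28 in control libraries) and S100A9, a gene of neutrophils and monocytes (13.64 with sponge plus Salmonella, 13.70 with Salmonella and 13.71 in control libraries), were high as well. Not all listed markers were high. The T cell gene CD3D stood at 4.28, 4.13, 4.59 and 4.18 in control libraries 1 to 4, inside or below the silent band. The monocyte genes CD163 and CCR2 ran from 4.24 to 5.06 and from 4.48 to 5.77 in control libraries. With Salmonella against control libraries 6 of 7 measured T cell markers and 3 of 3 B cell markers were lower, and with sponge plus Salmonella against Salmonella 7 of 7 and 3 of 3 were higher. By the same test, given below, 17.9% of all genes were lower in the first comparison and 11.9% higher in the second.

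Of the 4 genes, CXCL2 was the one whose level differed between Salmonella and control libraries, and TNF and IL6 showed almost no difference of means. In that comparison 33.6% of all genes passed the test, so 1 of 4 is near the background and is no result about the group. The test was limma over the 7480 genes, a gene passed at an adjusted p (Benjamini-Hochberg) under 0.05, and every adjusted p given here is from it. Of all genes 1175 were higher (15.7%) and 1338 lower (17.9%), or 965 higher and 1778 lower when each library was centred on its median.

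TNF stood at 7.86, 8.36, 7.41 and 8.12 log2 units in Salmonella libraries 1 to 4, against 8.26, 8.02, 7.63 and 7.45 in control libraries 1 to 4. These ranges overlapped almost fully, and the lowest Salmonella library lay below every control library. The difference was 0.09 ± 0.33 log2 units (SE, n = 4 each; 95% interval -0.60 to 0.79; adjusted p = 0.853). All 12 values of TNF lay above the silent band, so TNF transcripts were measured clear of that level in control libraries too.

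IL6 stood at 4.90, 4.78, 5.26 and 5.70 in Salmonella libraries, against 4.95, 4.95, 5.08 and 5.50 in control libraries. The ranges overlapped, and in each group 2 of 4 libraries lay above 4.97, the top of the silent band. The difference was 0.04 ± 0.20 (SE; 95% interval -0.40 to 0.48; adjusted p = 0.899).

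CXCL2 stood at 4.96, 4.92, 4.75 and 5.15 in Salmonella libraries, against 4.47, 4.50, 4.35 and 4.43 in control libraries. Every Salmonella library lay above every control library. CXCL2 was higher by 0.51 ± 0.10 log2 units (SE, n = 4 each; 95% interval 0.29 to 0.72; adjusted p = 0.00152), a ratio of 1.42. Groups without overlap in the upward direction were seen for 15.7% of all genes. The values of CXCL2 lay inside the silent band or just below it in all but 1 library, Salmonella replicate 4. Among the 185 silent symbols, 14.1% passed the same test (8 higher and 18 lower). In either direction, 10 of the 185 differed by at least as much as CXCL2, against 2601 of all 7480 genes. A difference of this size was thus also measured in genes taken as silent, but in a smaller share of them. Blood is a mixture, and fewer cells of a type cannot be told apart from less RNA per cell. Of 7 measured monocyte markers, 5 of them were higher and 0 lower with Salmonella, against 15.7% of all genes higher and 17.9% lower. No marker was at 0, nor was any value of any gene (lowest 2.13). The mean level of these markers ran from 9.99 to 10.25 in Salmonella libraries and from 8.45 to 8.93 in control libraries. The log2 of their summed level ran from 14.41 to 14.75 in Salmonella libraries and from 13.80 to 14.02 in control libraries. Their part in the difference of CXCL2 was not tested.

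CXCL3 stood at 5.44, 5.61, 6.44 and 4.95 in Salmonella libraries, against 4.74, 5.19, 5.11 and 5.62 in control libraries. In each of these groups 3 of 4 libraries lay above the silent band. Salmonella replicate 3 was the highest of all 12, while replicate 4 lay below 3 of the 4 control libraries. The difference of 0.45 ± 0.30 did not pass (SE; 95% interval -0.185 to 1.08; adjusted p = 0.266). Without single libraries it ran from 0.17, without Salmonella replicate 3, to 0.67, and it did not pass in any of these fits.

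**Figure D1:**
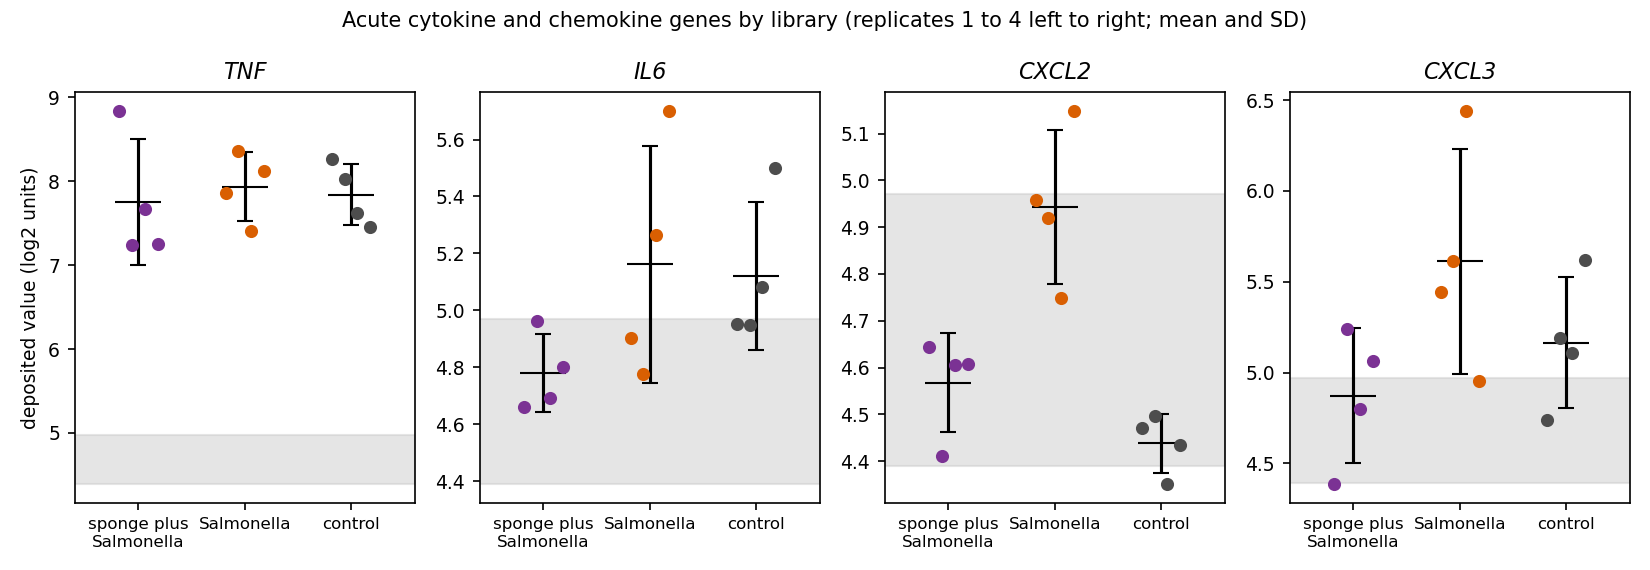
Deposited values in log2 units (vertical axis, a different range in each panel) of TNF, IL6, CXCL2 and CXCL3 in the 4 libraries of each group, with the mean and SD; grey marks the silent band from 4.39 to 4.97. TNF lies above the band throughout, and the Salmonella libraries of CXCL2 lie above both other groups.

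With the sponge, CXCL2 was again the gene that passed, now lower than with Salmonella alone. In this comparison 25% of all genes passed (11.9% higher and 13.2% lower), so 1 of 4 matches the background. CXCL2 stood at 4.64, 4.41, 4.61 and 4.61 in sponge plus Salmonella libraries 1 to 4, all below the lowest Salmonella library at 4.75. The difference was -0.38 ± 0.10 log2 units (SE, n = 4 each; 95% interval -0.59 to -0.16; adjusted p = 0.0151). Of all genes, 13.2% had groups without overlap in this downward direction, and 15.7% of the silent symbols passed the test (10 higher and 19 lower). In either direction, 23 of the 185 differed by at least as much as CXCL2, against 2843 of all 7480 genes. The call ended in a fit of these 8 libraries alone (adjusted p = 0.0601). Monocyte markers moved the same way, with 5 of 7 lower and 0 higher (mean level 9.17 to 9.72 with sponge plus Salmonella, and 9.99 to 10.25 with Salmonella; log2 of the summed level 13.67 to 14.38 with sponge plus Salmonella, and 14.41 to 14.75 with Salmonella). With quantile normalization 4 of these 7 markers were lower and 1 higher, and in the fit of these 8 libraries alone 4 were lower and 0 higher. The part of the monocyte markers in the difference of CXCL2 was not tested.

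CXCL3 stood at 4.39, 5.24, 4.80 and 5.07 in sponge plus Salmonella libraries, 2 of them above the silent band and replicate 1 at its lower edge. Its mean was lower than with Salmonella by the largest amount among the 4 genes, -0.74 ± 0.30 (SE; 95% interval -1.37 to -0.11), but the spread within both groups was wide and the difference did not pass (adjusted p = 0.0794). It passed without Salmonella replicate 4 (-0.96, adjusted p = 0.0366), the library lowest in CXCL3 of its group, and was -0.46 without Salmonella replicate 3 (adjusted p = 0.225).

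IL6 stood at 4.66, 4.96, 4.69 and 4.80 in sponge plus Salmonella libraries. All 4 lay inside the silent band. The difference from Salmonella was -0.38 ± 0.20 (SE; 95% interval -0.82 to 0.05; adjusted p = 0.181), as large as that of CXCL2 but with a wider spread.

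TNF stood at 8.84, 7.24, 7.67 and 7.26 in sponge plus Salmonella libraries. Replicate 1 was the highest of all 12 libraries and replicates 2 and 4 were the lowest, so this group spanned the whole range of TNF. The difference from Salmonella was -0.19 ± 0.33 (SE; 95% interval -0.88 to 0.51; adjusted p = 0.696). Leaving out single libraries moved it between -0.55 (without sponge plus Salmonella replicate 1) and -0.015 (without sponge plus Salmonella replicate 2); it was -0.020 without sponge plus Salmonella replicate 4 and -0.044 without Salmonella replicate 2, and passed in none of these.

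Against control libraries, 0 of the 4 genes passed with sponge plus Salmonella, where 40.9% of all genes did (1336 or 17.9% higher and 1721 or 23% lower; 1062 and 2569 after median centring). An unadjusted p below 0.05 was reached by 0 of the 4 too, against 50% of all genes. The differences were 0.13 ± 0.10 for CXCL2, -0.34 ± 0.20 for IL6, -0.29 ± 0.30 for CXCL3 and -0.09 ± 0.33 for TNF (SE; adjusted p from 0.194 for IL6 to 0.841 for TNF). The 95% interval for TNF ran from -0.78 to 0.60. The 3 comparisons share libraries and are not independent of each other.

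An exact permutation test of each difference of means, two-sided, cannot go below p = 0.0286 with 4 libraries against 4. CXCL2 reached that smallest value in both comparisons with Salmonella alone, and the adjusted value over the 12 tests was 0.172. The other 10 exact p-values ran from 0.0857 to 0.857.

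**Figure D2:**
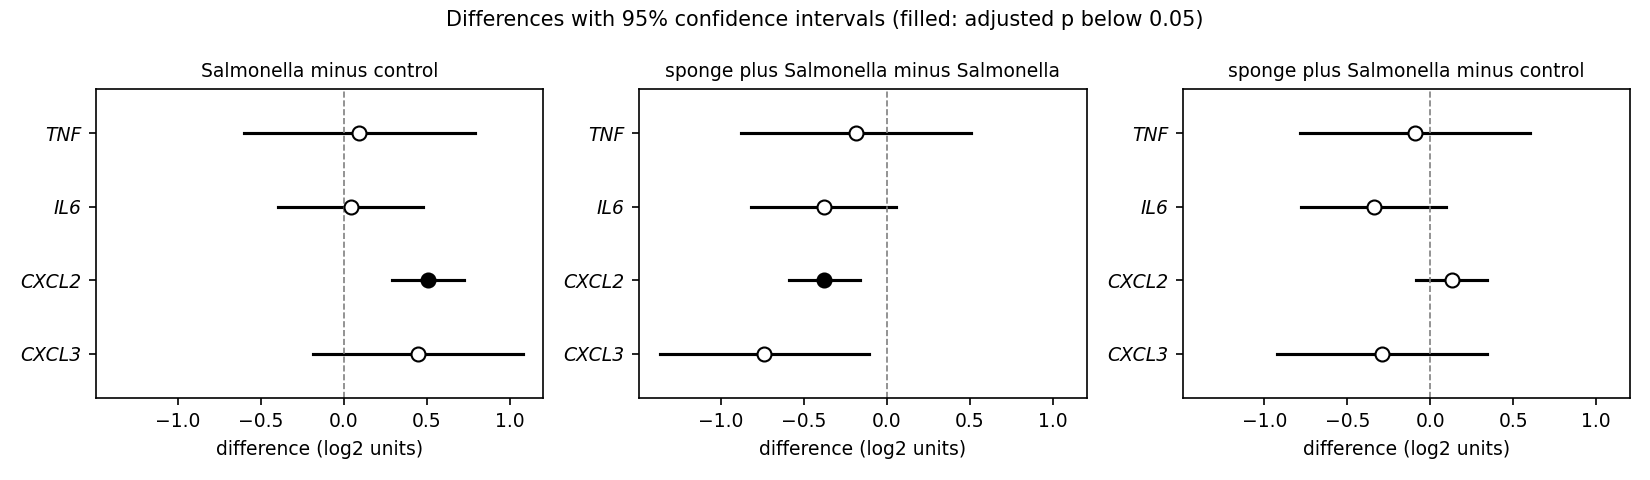
Difference of group means in log2 units (horizontal axis) with its 95% interval for each gene in the 3 comparisons. Filled points passed the adjusted threshold: CXCL2 alone, higher by 0.51 in Salmonella than in control libraries and lower by 0.38 with sponge plus Salmonella than with Salmonella.

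By group mean, TNF, CXCL2 and CXCL3 were highest with Salmonella, and IL6 stood at nearly the same mean with Salmonella (5.16 ± 0.415 SD) and in control libraries (5.12 ± 0.26). For CXCL2 the order was 4.94 ± 0.165 with Salmonella, 4.57 ± 0.11 with sponge plus Salmonella and 4.44 ± 0.064 in control libraries (SD, n = 4 each), and the last pair did not differ beyond their spread. For CXCL3 it was 5.61 ± 0.62 with Salmonella, 5.16 ± 0.36 in control libraries and 4.87 ± 0.37 with sponge plus Salmonella. For TNF it was 7.94 ± 0.41 with Salmonella, 7.84 ± 0.37 in control libraries and 7.75 ± 0.75 with sponge plus Salmonella. For TNF, CXCL3 and IL6, no neighbours in the order differed beyond their spread.

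Of 26 other acute cytokines and chemokines, 9 were measured. With Salmonella against control libraries 2 of them were higher and 2 lower, with a median difference of 0.12 against -0.02 over all genes. Of all genes 15.7% were higher and 17.9% lower, so 2 and 2 of 9 are near the background and are no result about the class. IL1B, the inflammasome-processed cytokine, stood at 9.60 ± 0.50 in Salmonella and 7.99 ± 0.60 in control libraries (SD, n = 4 each; difference 1.60 ± 0.28 SE, adjusted p = 0.000564). Monocyte markers were higher with Salmonella too, at the levels given for CXCL2, and their part in the difference of IL1B was not tested. PPBP, a platelet chemokine of the same CXC family as CXCL2, was higher by 1.13 ± 0.27 (adjusted p = 0.00449). PPBP is itself on the platelet marker list, of which 5 of 7 measured genes, PPBP included, were higher and 0 lower. With median centring 3 of the 7 were higher, and likewise 3 in a fit of these 2 groups alone. The log2 of the summed level of all 7 ran from 12.64 to 13.75 in Salmonella and from 12.02 to 12.35 in control libraries. This sum includes PPBP, with a control mean of 11.38, and so is no gauge independent of PPBP. The part of these platelet markers was not tested. CXCL6, which the pig tables list as a second name of AMCF-II, a neutrophil chemokine, fell by 1.18 (SE 0.23, adjusted p = 0.00136), and its Salmonella mean of 4.55 lay in the silent band.

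Measured neighbours of TNF, IL6 and CXCL2 within 200 kb were looked up in the same annotation. On chromosome 8, CXCL6 (70008225 to 70010360) and PPBP (70021468 to 70022490) lie 146893 and 134763 bases from CXCL2, counted between the nearest gene ends. CXCL2 and PPBP were higher with Salmonella and CXCL6 was lower. The epidermal growth factor family genes EPGN (107722 bases away; -0.28, adjusted p = 0.128) and EREG (192171 bases away; 0.55, adjusted p = 0.0615) did not pass. Next to TNF on chromosome 7, AIF1, a macrophage gene that lies 9359 bases from it (23711752 to 23731191), was higher with Salmonella by 0.84 (adjusted p = 0.00992) and fell by 1.31 with the sponge against Salmonella (adjusted p = 0.00118). CLIC1, a chloride channel gene 140436 bases from TNF, was higher with Salmonella by 0.54 (adjusted p = 0.0254) and fell by 0.64 with the sponge against Salmonella (adjusted p = 0.0146), while LY6G6F, 113289 bases away, passed neither comparison (0.31, adjusted p = 0.601, and -0.57, adjusted p = 0.324). TNF passed neither comparison, and IL6 had no measured neighbour in that distance. Monocyte markers moved in the directions of AIF1 and CLIC1 too, at the levels given for CXCL2, and their part was not tested.

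With sponge plus Salmonella against Salmonella, 3 of the 9 other cytokine genes were higher and 0 lower. Of all genes 11.9% were higher and 13.2% lower there, and 17.9% higher and 23% lower with sponge plus Salmonella against control libraries. IL18, a cytokine of the interleukin-1 family, was higher by 0.73 ± 0.215 (adjusted p = 0.0231), a call that ended when replicate 3 or 4 of either group was left out (adjusted p 0.0551 to 0.0744). IL1A (0.29 ± 0.08) and IL12B (0.27 ± 0.08) were inside or below the silent band in both groups, and their calls ended without Salmonella replicate 2 (adjusted p = 0.0529) and without Salmonella replicate 3 (adjusted p = 0.0501). Both also ended with median centring (adjusted p = 0.0618 for IL1A and 0.054 for IL12B), which left 1 of the 9 higher. IL12B passed no longer when these 8 libraries were fitted alone (adjusted p = 0.0593). IL1B did not pass this comparison (-0.23, adjusted p = 0.556). Against control libraries, 4 of the 9 were higher and 1 lower with sponge plus Salmonella, among them IL1B (1.37 ± 0.28), IL18 (0.90 ± 0.215) and IL12A (0.70 ± 0.19), whose control mean of 4.22 lay below the silent band.

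Genes that release and receive TNF were measured for 6 of 20 list members. With Salmonella against control libraries 15.7% of all genes were higher and 17.9% lower. Near that background, 1 of the 6 was higher and 0 lower. This was TNFRSF1B, which encodes TNFR2, at 12.01, 12.73, 12.25 and 12.41 in Salmonella libraries, against 11.69, 12.00, 11.63 and 12.00 in control libraries. The highest control value lay just under the lowest Salmonella value, and the difference of 0.52 ± 0.17 (adjusted p = 0.027) missed the threshold when Salmonella replicate 2 or 4, or control replicate 1 or 3, was left out (adjusted p 0.0549 to 0.0903), and with median centring (adjusted p = 0.0519), which left 0 of the 6 higher. ADAM17 showed almost no difference of means there (-0.03, adjusted p = 0.924). CHUK, a kinase of the NF-kB pathway (-0.45, adjusted p = 0.0881), and TRADD, an adaptor of TNFR1 (-0.13, adjusted p = 0.626), did not pass, though CHUK did without Salmonella replicate 4 (adjusted p = 0.0437).

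With the sponge, 2 of these 6 were lower than with Salmonella and 0 higher. Of all genes 13.2% were lower and 11.9% higher there, and 23% lower and 17.9% higher with sponge plus Salmonella against control libraries. TNFRSF1B stood at 11.84, 11.39, 11.49 and 11.45 in sponge plus Salmonella libraries, all below the lowest Salmonella library (difference -0.81 ± 0.17, adjusted p = 0.00387). ADAM17, which encodes the protease that frees TNF, stood at 5.35, 4.998, 4.90 and 4.77 in sponge plus Salmonella libraries, against 5.63, 6.02, 5.86 and 5.73 in Salmonella libraries. It was lower, with a difference of -0.80 ± 0.23 (adjusted p = 0.0201), which ended without sponge plus Salmonella replicate 4 or Salmonella replicate 2 (adjusted p 0.0567 to 0.0626). In sponge plus Salmonella replicates 3 and 4 ADAM17 lay inside the silent band, and in replicate 2 just above it. FADD, a death-domain adaptor, did not pass (0.40, adjusted p = 0.126). Against control libraries, ADAM17 was lower as well (-0.84 ± 0.23, adjusted p = 0.00973). CHUK was the other of 2 lower members there (-0.51, adjusted p = 0.0467), and its call ended when sponge plus Salmonella replicate 2, 3 or 4 or control replicate 1, 3 or 4 was left out (adjusted p 0.0613 to 0.127), and with quantile normalization (adjusted p = 0.0542). FADD (0.36, adjusted p = 0.133) and TNFRSF1B (-0.29, adjusted p = 0.185) did not pass there. Like TNFRSF1B, monocyte markers were higher with Salmonella than in control libraries and lower with the sponge than with Salmonella. Their levels are given for CXCL2, and their part was not tested.

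Of 14 genes of IL-6 reception and signalling 7 were measured, and IL6ST, which encodes gp130, was not among them. With Salmonella 5 of the 7 were higher and 0 lower than in control libraries, with a median difference of 1.68 against -0.02 over all genes. Of all genes 15.7% were higher and 17.9% lower. IL6R stood at 6.85, 6.73, 7.19 and 7.70 in Salmonella libraries, against 4.68, 5.39, 5.69 and 5.99 in control libraries. The groups were far apart, by 1.68 ± 0.36 (adjusted p = 0.00234). STAT3 stood at 8.51, 9.39, 9.22 and 9.37 in Salmonella libraries, against 6.87, 7.06, 7.62 and 7.64 in control libraries (1.82 ± 0.25, adjusted p = 7.19e-05). SOCS3, a STAT3-induced brake on the IL-6 receptor, was higher by 2.25 ± 0.28 from a control mean of 4.60 inside the silent band, and BCL6, a transcriptional repressor, by 1.68 ± 0.28.

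With sponge plus Salmonella against Salmonella, 1 of the 7 was higher, 3 were lower and 3 did not pass. Of all genes 11.9% were higher and 13.2% lower there, and 17.9% higher and 23% lower with sponge plus Salmonella against control libraries. IL6R stood at 6.93, 7.75, 8.38 and 6.90 in sponge plus Salmonella libraries, a range that overlapped that of Salmonella (difference 0.37 ± 0.36, adjusted p = 0.459) and lay above every control library (2.05 ± 0.36, adjusted p = 0.00059). STAT3 stood at 7.40, 8.05, 8.10 and 7.99, below every Salmonella library (-1.24 ± 0.25, adjusted p = 0.00301). SOCS3 was lower by the same test (-1.40 ± 0.28, adjusted p = 0.00331), while JAK1, a kinase bound to gp130, was higher (0.97 ± 0.16, adjusted p = 0.000984). Against control libraries 5 of the 7 were higher and 0 lower with sponge plus Salmonella, among them JAK1 (0.81 ± 0.16) and JUNB, an AP-1 factor induced by STAT3 (1.30 ± 0.31), while STAT3 did not pass (0.59, adjusted p = 0.0696) unless sponge plus Salmonella replicate 1 was left out (adjusted p = 0.0287). Monocyte markers moved in the direction of STAT3 and SOCS3 in both comparisons, with the values given above, and their part was not tested.

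**Figure D3:**
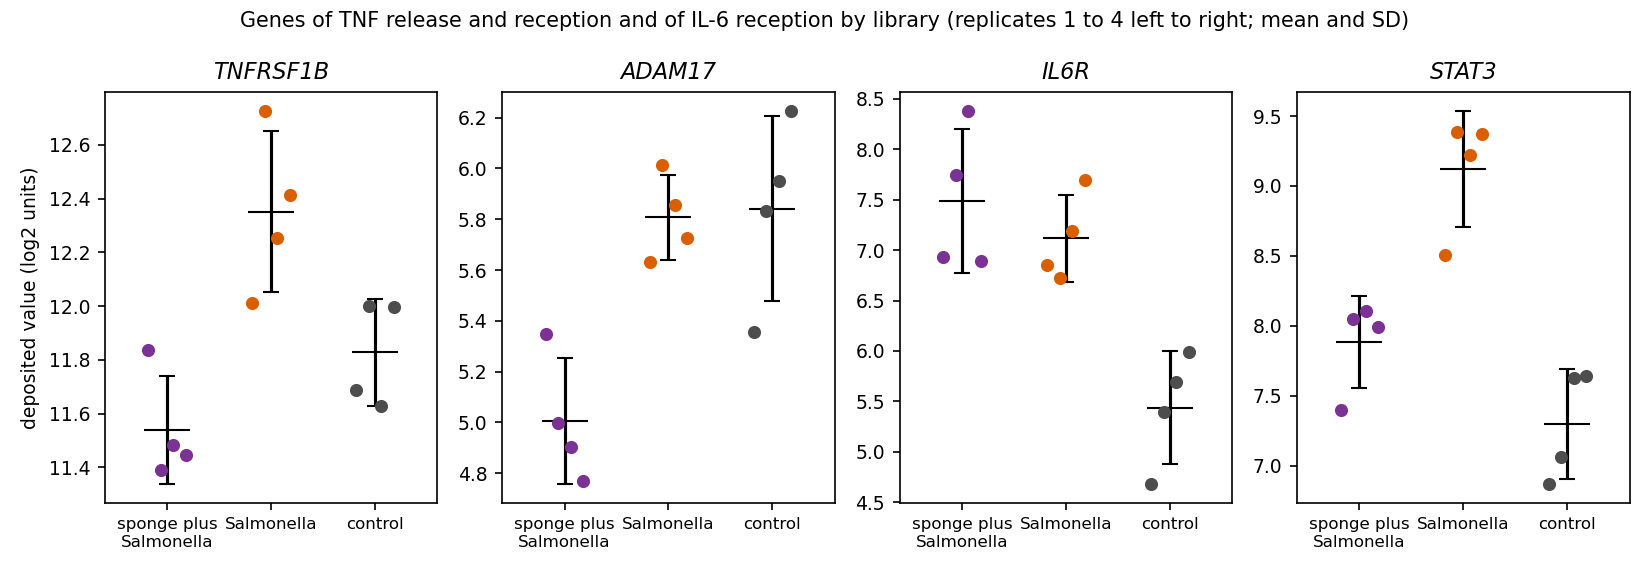
Deposited values in log2 units (vertical axis, a different range in each panel) of TNFRSF1B, ADAM17, IL6R and STAT3 in the 4 libraries of each group, with the mean and SD. TNFRSF1B and STAT3 are lower in every sponge plus Salmonella library than in any Salmonella library, while IL6R overlaps between these groups.

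The receptor genes CXCR1 and CXCR2 had no row under these symbols, and 4 of 14 genes of their list were measured. With Salmonella 3 of the 4 were higher than in control libraries and 0 lower: the G protein subunit gene GNAI3 (1.51 ± 0.22) and the arrestin genes ARRB1 (1.33 ± 0.20) and ARRB2 (0.96 ± 0.24), which help to switch off many receptors of this kind. With sponge plus Salmonella against Salmonella 0 of the 4 passed, with differences of -0.22 for ARRB1, 0.12 for GNAI3 and -0.03 for ARRB2. GNAI3, ARRB1 and ARRB2 were also higher with sponge plus Salmonella than in control libraries (1.63 ± 0.22 for GNAI3, 1.11 ± 0.20 for ARRB1 and 0.94 ± 0.24 for ARRB2). Of all genes 15.7% were higher with Salmonella than in control libraries, and 17.9% with sponge plus Salmonella. Between sponge plus Salmonella and Salmonella 25% of all genes passed.

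Genes upstream of the cytokines were measured for 10 of 20 members. With Salmonella 4 were higher than in control libraries and 0 lower, and with the sponge 4 were lower than with Salmonella and 0 higher. Of all genes 15.7% were higher and 17.9% lower in the first comparison, and 11.9% higher and 13.2% lower in the second. TLR4, the endotoxin receptor, stood at 9.31 ± 0.36 in Salmonella and 7.04 ± 0.23 in control libraries (SD, n = 4 each; difference 2.27 ± 0.23 SE, adjusted p = 6.34e-06), and was lower with sponge plus Salmonella than with Salmonella (-1.48 ± 0.23, adjusted p = 0.00061). Its partner gene LY96 (1.96 ± 0.25 and then -1.45 ± 0.25) was likewise higher with Salmonella and lower with the sponge. Monocyte markers moved in these directions too (5 of 7 higher with Salmonella, then 5 of 7 lower with the sponge, at the levels given for CXCL2). With quantile normalization 4 of the 7 were lower with the sponge and 1 higher. The part of the monocyte markers was not tested. CEBPB, a transcription factor of acute phase genes, was higher with Salmonella (1.09 ± 0.19), and the adaptor gene TICAM2 was lower with the sponge (-2.05 ± 0.30). NFKB1, which encodes an NF-kB subunit, passed in none of the comparisons (0.28, adjusted p = 0.0904, for sponge plus Salmonella against control libraries), but with quantile normalization it was higher with the sponge against Salmonella (0.51, adjusted p = 0.00758) and against control libraries (0.52, adjusted p = 0.00342). In the last comparison 1 of the 10 was higher, TLR4 (0.79 ± 0.23), and 1 lower, LBP, whose means of 4.37 with sponge plus Salmonella and 4.56 in control libraries lay at or below the silent band and whose call ended when sponge plus Salmonella replicate 2 or 4 or control replicate 1, 3 or 4 was left out (adjusted p 0.0556 to 0.094). With quantile normalization 3 of the 10 were higher there. Without it, 17.9% of all genes were higher there and 23% lower.

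Other genes that NF-kB and early signals switch on were split. Of 20, 8 were measured, and with Salmonella 4 were higher than in control libraries and 3 lower. Of all genes 15.7% were higher and 17.9% lower. TNFAIP6, a hyaluronan-binding protein gene named for its induction by TNF, stood at 12.41 ± 0.27 in Salmonella and 7.13 ± 0.79 in control libraries (SD, n = 4 each; difference 5.27 ± 0.47 SE, adjusted p = 2.32e-06). PTGS2, which encodes the prostaglandin-making enzyme COX-2, was higher by 2.08 ± 0.29, while NFKBIA, the inhibitor that NF-kB induces, fell by 0.89 (SE 0.14, adjusted p = 0.000271). With the sponge TNFAIP6 was the 1 of 8 lower than with Salmonella (-3.39 ± 0.47, adjusted p = 0.000333) and 0 were higher. Of all genes 13.2% were lower and 11.9% higher there, so 1 of 8 is near the background. NFKBIA (-0.33, adjusted p = 0.0976) and EGR1, an immediate early factor (-0.30, adjusted p = 0.272), did not pass there, though NFKBIA did without Salmonella replicate 1 (adjusted p = 0.0421). Against control libraries 2 of the 8 were higher with sponge plus Salmonella, PTGS2 (1.93 ± 0.29) and TNFAIP6 (1.89 ± 0.47), and NFKBIA was lower (-1.21 ± 0.14). With median centring 3 of the 8 were lower. Without centring, 17.9% of all genes were higher there and 23% lower. Like TNFAIP6, monocyte markers were higher with Salmonella than in control libraries and lower with the sponge than with Salmonella. Their levels are given for CXCL2, and their part was not tested.

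Genes that set the life of cytokine mRNAs were measured for 12 of 18. With Salmonella 3 were higher and 3 lower than in control libraries, where 15.7% of all genes were higher and 17.9% lower. CNOT1, the scaffold of the main deadenylase, fell by 1.03 (SE 0.15, adjusted p = 0.000144) and ZFP36L2, which binds AU-rich elements and promotes decay, by 0.89 (SE 0.16, adjusted p = 0.000692). MAPK14, the p38 kinase that holds such decay back, was higher by 1.503 ± 0.31 from a control mean of 4.17 below the silent band. With the sponge 5 of the 12 were higher than with Salmonella and 2 lower, where 11.9% of all genes were higher and 13.2% lower. ELAVL1, which encodes the stabilizing protein HuR, was higher by 1.49 ± 0.23 from a Salmonella mean of 4.18 below the band, CNOT1 by 0.58 ± 0.15, and TIA1, a translational silencer of TNF mRNA in mouse, by 1.29 ± 0.35, a call that ended without Salmonella replicate 4 (adjusted p = 0.0511). Against control libraries 5 were higher and 4 lower with sponge plus Salmonella, led by TIA1 (2.58 ± 0.35), its relative TIAL1 (2.16 ± 0.33) and ELAVL1 (0.98 ± 0.23). With median centring 6 were lower and with quantile normalization 2. Without either, 17.9% of all genes were higher there and 23% lower.

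**Figure D4:**
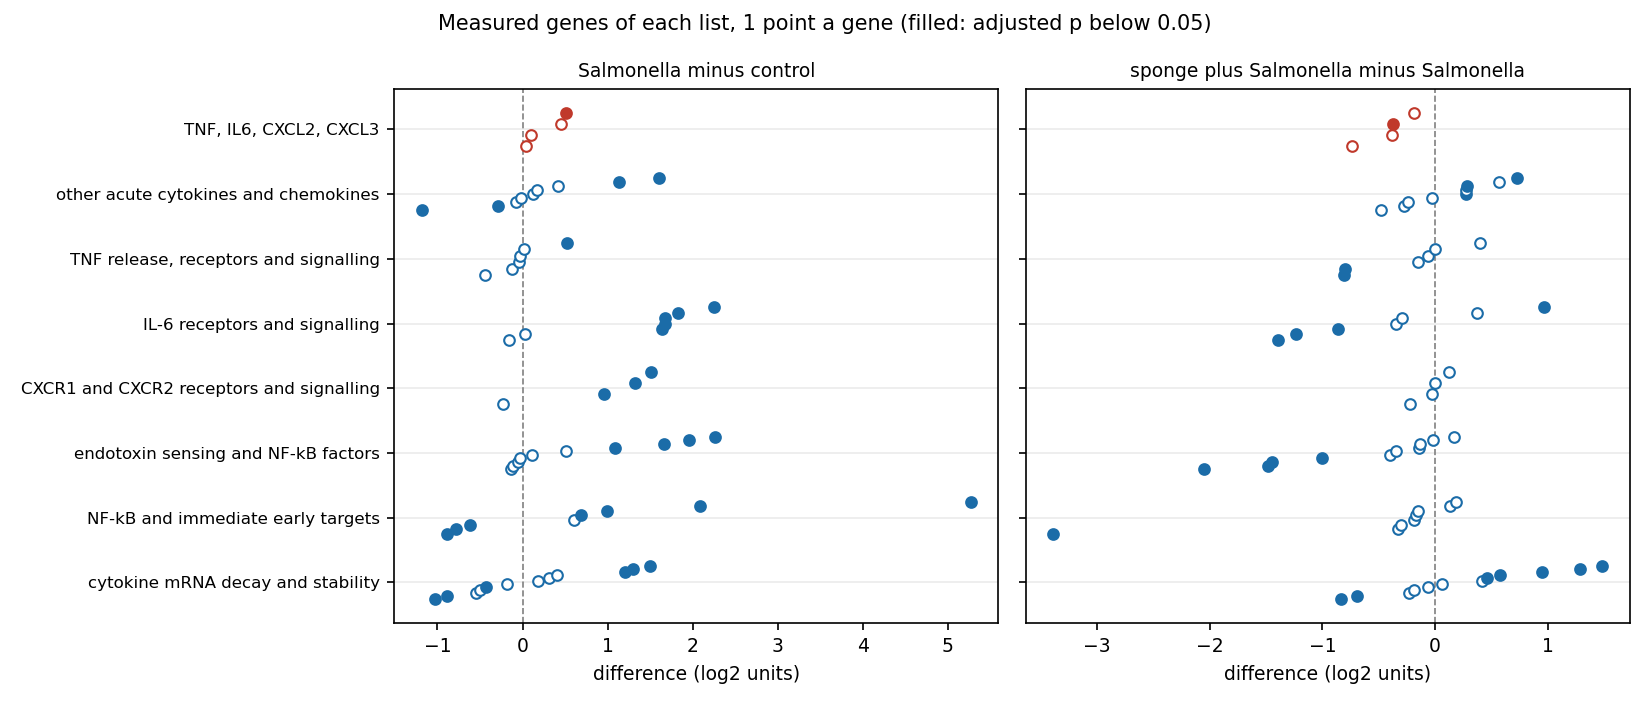
Difference in log2 units (horizontal axis) of each measured gene in the named lists, for Salmonella minus control and sponge plus Salmonella minus Salmonella, 1 point a gene, filled where the adjusted p was below 0.05. The 4 cytokine and chemokine genes lie within 0.74 of 0, while TNFAIP6 lies at 5.27 and -3.39.

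The patterns over the 12 libraries that came closest to each gene were found by the root mean square difference of centred values, with each gene's own mean taken out. For CXCL2, whose own deviation was 0.238 log2 units, the closest were HES1 (0.101), PIKFYVE (0.114), TCF7L1 (0.127), TTF1 (0.131) and IL9R (0.135). For IL6 (own deviation 0.307) they were ZCRB1 (0.139), TGFBI (0.145), GPRC6A (0.158), VNN3 (0.158) and DNTTIP1 (0.162). TNF (own deviation 0.472) had DRD4 (0.234), SSNA1 (0.274), CCDC22 (0.312), ARHGEF3 (0.314) and TMEM150A (0.319) nearest to it. CXCL3 (own deviation 0.506) had DRD3 (0.216), CDCP1 (0.257), SEC31B (0.279), LYPD4 (0.286) and ADCY8 (0.293). The 5 genes nearest CXCL2 had means over the 12 libraries of 4.49 to 4.79, inside the silent band. GPRC6A (4.94), VNN3 (4.89) and LYPD4 (4.95) lay inside it too, and the other nearest genes above it. None of the 9 other measured cytokines and chemokines was among these 20 nearest genes. With 9 genes among 7480 that was likely for any set, so it is no result about the class.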

How the data were processed

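RNA of 12 PBMC libraries was taken with a PAXgene kit and made into Illumina TruSeq libraries, per the labels' protocols. Bowtie, R 3.4.2 and the build Sscrofa11.1 are named in the submitters' processing notes. The deposited values were read as log2 expression, 1 per symbol and library; nothing in the sources used here gives the base, the counting or the scaling, and the depth is unknown. All 7480 genes and 12 libraries entered 1 limma fit (version 3.58.1, R 4.3.3) with group means and a variance trend on the level, and genes with an adjusted p below 0.05 passed. The script was tested on simulated data. Exact permutation tests used scipy 1.17.1. The 4 genes, the lists and the rules were chosen with earlier results of these data known. Named were the 4 genes, the 5 genes nearest each in pattern, the 3 genes of each list with the smallest adjusted p in each comparison, and TNFRSF1B, IL6R, ADAM17 and STAT3; the chromosomal neighbours and the markers were chosen after their values were seen. The silent set was also chosen with these values known. Alternatives were another scaling, variance model, filter or set of libraries, a replicate block and leaving out each replicate; those for the lists were added after seeing the data. No sequences are shown.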

Additional observations from a re-analysis of the deposited data

Results flagged for a closer look

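Single libraries stood apart from the other 3 of their group, by a gap above Dixon's 95% critical value, in 13 of the 183 groups of 4 that were looked at, and chance flags about 1 in 20 groups. Among the 4 cytokine and chemokine genes this was CXCL2 in sponge plus Salmonella replicate 2, at 4.41 log2 units where the other 3 lay between 4.61 and 4.64. Without that library the difference of CXCL2 from Salmonella was -0.32 (adjusted p = 0.0447).

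Among the other genes named, STAT3 was low in sponge plus Salmonella replicate 1 (7.40), BCL6 low in Salmonella replicate 1 (11.21), PTGS2 low in control replicate 1 (4.38), LY96 high in control replicate 4 (10.75) and GNAI3 high in Salmonella replicate 3 (8.49). Among the genes nearest in pattern, control replicate 1 stood apart for ADCY8 (4.88), ARHGEF3 (11.15) and PIKFYVE (4.47). Sponge plus Salmonella replicate 1 stood apart for LYPD4 (4.60) and PIKFYVE (4.84), sponge plus Salmonella replicate 2 for GPRC6A (4.99) and Salmonella replicate 3 for SEC31B (6.16).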

How the results depend on the processing

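Of 222 values under alternatives, 210 were taken as unchanged. For the difference of a gene this meant the same direction and the same side of the threshold. The 222 also held 15 counts of genes passing in each comparison, which have neither. These counts were taken as unchanged within 1.5 times, a looser rule, and all of them are among the 210. The call of CXCL2 against control held in all 14 (0.42 to 0.57). Its fall with the sponge was lost in 1 of 14, the fit of the 8 libraries compared (-0.38, adjusted p = 0.0601), and was -0.31 to -0.44 without single replicates (adjusted p 0.0101 to 0.0447). Under the same contrast and without single replicates, CXCL3 ran from -0.96 to -0.46, IL6 from -0.51 to -0.20 and TNF from -0.55 to -0.015. CXCL2 has a mean below 5, so a filter at 5 gives it no value. IL6 in Salmonella against control, not called in any setting, turned to -0.05 with median centring (-0.04681) and quantile normalization (-0.04663), and ran from -0.14 to 0.17 without single replicates. TNF ran from -0.047 to 0.27 in that comparison without single replicates, and from -0.45 to 0.079 for sponge plus Salmonella against control. The counts of genes passing stayed within 1.5 times. Median centring moved the median of all genes to -0.20 from -0.07 for sponge plus Salmonella against control, where CXCL2 then differed by 0.0065. With the replicate number as a block, CXCL2 differed by 0.51 (adjusted p = 0.0036) and -0.38 (adjusted p = 0.0245), and 2371, 1706 and 2907 genes passed, against 2513, 1873 and 3057 without it. Same-numbered libraries correlated from -0.36 to 0.377 in their deviations, so the numbers were not taken to pair libraries. Among the other genes named, the block ended the calls of CHUK, CXCL6 and LBP in sponge plus Salmonella against control and of ZFP36L2 in sponge plus Salmonella against Salmonella, and STAT3 passed in sponge plus Salmonella against control (adjusted p = 0.0223). With the depth unknown, no counting error can be given.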

Other observations

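The library lowest in TNF was the highest in CXCL3 of its group in all 3 groups: sponge plus Salmonella replicate 2, Salmonella replicate 3 and control replicate 4. The same held for 116 of the 7480 genes (1.55%), CXCL3 included, so it is not particular to CXCL3.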
